A study of Mus musculus with 4 samples.

Results

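The 10 genes examined here, Clec4f, Cd5l, Vsig4, Csf1r, C1qa, C1qb, C1qc, Cd68, Marco and Adgre1, are named Kupffer cell markers. They were selected by symbol from the transcript values of 4 liver libraries, out of 24408 genes that could be named, with each gene represented by 1 transcript. All 10 passed the filter of a mean of at least 100 reads per library, as did 9142 genes in all, so no member was lost to low counts. The libraries came from C57/BL6 mice that carried the ClockΔ19 mutation together with the transgenes Scg2:tTA and tetO::Clock-HA. Scg2 directs the tetracycline-controlled activator to brain and neuroendocrine cells, and doxycycline keeps that activator from switching on the Clock-HA transgene. All groups shared this genotype and all received doxycycline at 30 ug/ml in the water, from 3 days before constant darkness until collection. The mice had lived for a week under a cycle of 12 h light and 12 h darkness, and livers were taken in darkness at circadian times 22, 28, 34 and 40 h (CT22, CT28, CT34 and CT40). Each time was represented by 1 polyA library, for which the RNA of 3 animals had been pooled, so spread between animals or between libraries of a time cannot be estimated and no test between times was possible. The sources used here do not give age or sex, and no library without the Clock mutation was analysed here.

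Kupffer cells are the resident macrophages of the liver. They line the sinusoids and take up bacteria, dying cells, aged erythrocytes and complement-coated particles from portal blood. Their survival depends on signalling through the CSF1 receptor, and their identity is maintained by macrophage transcription factors such as PU.1 and the liver X receptor alpha. The 10 genes cover several of these tasks: surface receptors for uptake (Clec4f, Vsig4, Marco), the growth factor receptor Csf1r, secreted proteins (Cd5l and the C1q chains), the adhesion receptor Adgre1 and the endolysosomal glycoprotein Cd68.

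The samples were whole liver, and the hepatocyte markers dominated them. Reads of each gene were put on 1 scale with TMM, a scaling that assumes most genes do not differ; these scaled reads are used unless raw reads are named. The 15 matched hepatocyte markers summed to between 3039160 and 3607010 scaled reads per library. The 10 Kupffer cell markers summed to 6174 scaled reads at CT22, 5560 at CT28, then 6371 at CT34 and 5514 at CT40, or 0.0290 to 0.0345% of all gene reads. The highest sum was 1.16-fold above the lowest, with a 95% interval of 1.11 to 1.20 that covers counting error only. The summed level of these markers thus lay within a narrow band over the 4 libraries. In bulk tissue a smaller number of Kupffer cells and less RNA per cell cannot be told apart.

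The libraries differed from each other in ways that touch the values below. Total gene reads were between 17166761 and 19715882. The CT22 library stood apart: it held 17.8 mitochondrial reads per 100 gene reads against 6.35 to 9.98 in the others, and 23.4 intron reads per 100 gene reads against 16.9 to 19.3. Over 8571 genes, the median log2 ratio of reads per base in the 5' part to the 3' part of the transcript was 0.31 (CT22), 0.49 (CT28), 0.67 (CT34) and 0.76. (CT40) Of all genes tested, 13.0% had a 2-fold range over the 4 libraries, and 3.39% did so when CT22 was left out.

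The members did not move as 1 group. Of the 10, 4 had a range of at least 2-fold between their highest and lowest library (Csf1r, C1qa, Marco and Adgre1), where 13.0% of all genes tested had such a range. The other 6 ranged by 1.21- to 1.40-fold, and the count was also 4 at a threshold of 1.5-fold, which 43.9% of all genes passed. The median log2 range of the members was 0.48 and that of all genes tested was 0.53. Members were highest at CT34 in 5 cases (20.9% of all genes) and lowest at CT40 in 5 cases (25.1% of all genes). The CT34 count includes Clec4f, for which CT34 and CT22 could not be separated. Without the CT22 library 1 member passed 2-fold, and without CT34 2 members did.

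**Figure D1:**
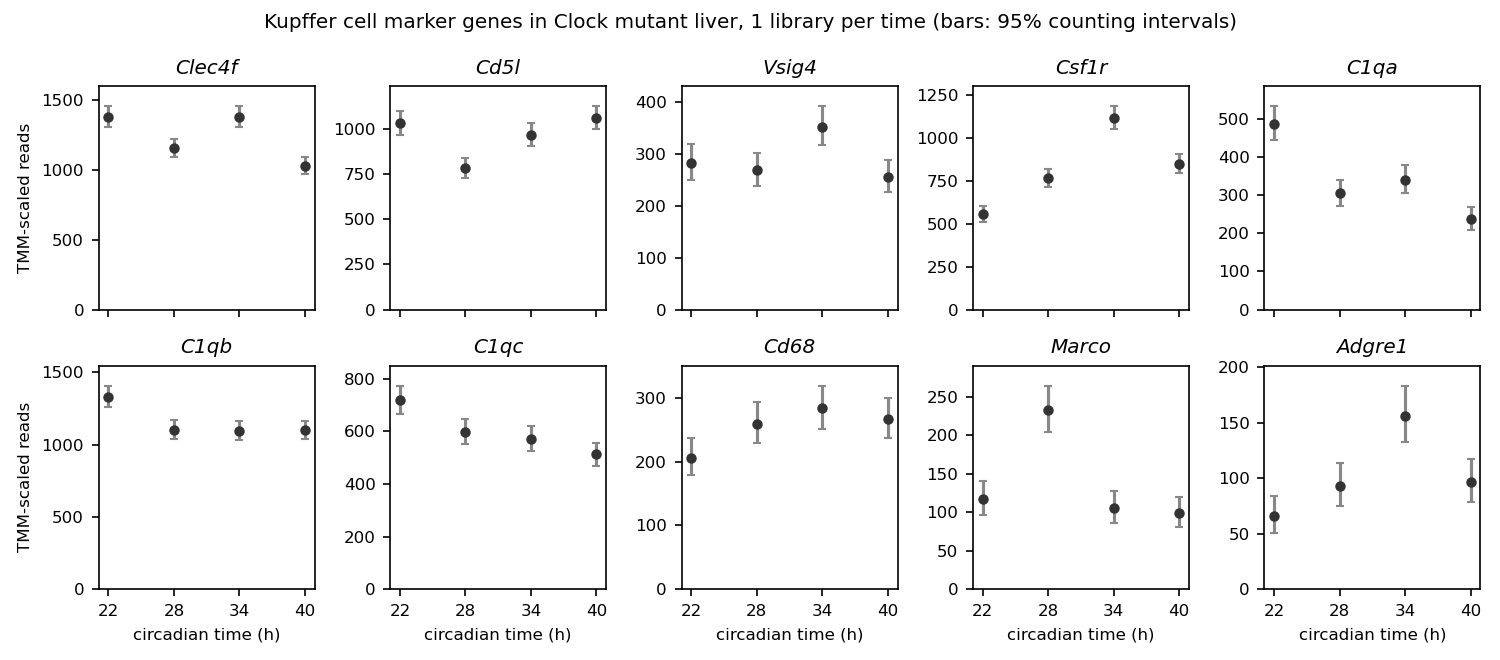
TMM-scaled reads of each of the 10 genes (vertical axis, starting at 0) against circadian time in hours, 1 library per time; bars are exact 95% counting intervals and do not include spread between animals. Csf1r and Adgre1 were highest at CT34 and lowest at CT22, Marco was highest at CT28, and the C1q chains were highest at CT22.

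**Figure D2:**
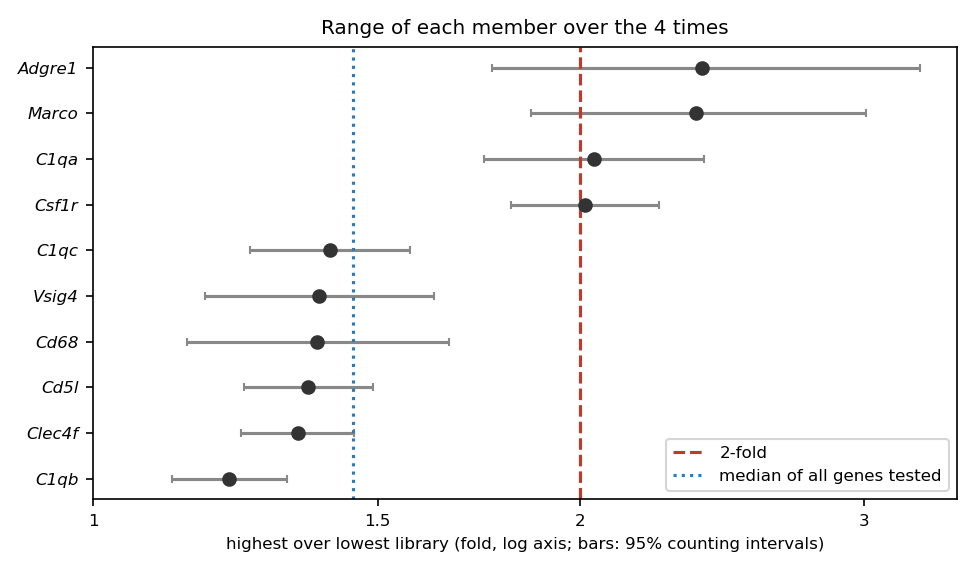
Highest over lowest library for each gene on a log axis, with 95% counting intervals; the dashed line marks 2-fold and the dotted line the median of all genes tested. Marco and Adgre1 lie at 2.36 and 2.38, Csf1r and C1qa next to the 2-fold line at 2.01 and 2.04, and the other 6 genes below 1.5.

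Among the uptake receptors, Clec4f, a C-type lectin close to restricted to Kupffer cells in the mouse, was one of the steadiest in transcript reads. It had 1379 scaled reads at CT22, 1156 at CT28, then 1379 at CT34 and 1031 at CT40. In these reads CT22 and CT34 could not be separated, with a CT34 over CT22 ratio of 1.001 (95% counting interval 0.93 to 1.08). The range was 1.34-fold (1.23 to 1.45). The parts of the transcript differed in opposite directions, with a CT34 over CT22 ratio of 1.47 in the 5' exons and 0.86 in the 3' exons. Vsig4, a complement receptor that binds fragments of C3, had 283, 269, 353 and 256 scaled reads in the same order of times. CT34 was the highest, 1.25-fold above CT22 (1.06 to 1.47), the other 3 lay close together, and the range was 1.38-fold (1.17 to 1.62).

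Marco, a class A scavenger receptor for bacteria and particles, had a single high library in its transcript reads. It had 117 scaled reads (CT22), 232 (CT28), 105 (CT34) and 98.4 (CT40), from 112, 236, 103 and 103 raw reads. The CT28 library was above each of the other 3, which differed from each other by less than their counting intervals. CT28 was 1.99-fold above CT22 (1.59 to 2.52), 2.21-fold above CT34 (1.75 to 2.81) and 2.36-fold above CT40 (1.87 to 3.01). Marco was the 1 member at least 2-fold higher at CT28 than at CT40, a difference that 1.20% of all genes tested showed. Junction reads of Marco, counted separately by the authors, were 208 at CT22, 482 at CT28, then 192 at CT34 and 192 at CT40, and again only the CT28 library was high. All 16 annotated introns of Marco were spanned by junction reads, and none of its junction reads lay outside the annotation. CT28 was the highest library in 16 of the 17 exons. The other libraries were less alike in the 5' exons, where CT34 was 2.504-fold above CT22 and CT28 1.69-fold above CT34; in the 3' exons CT28 was 2.53-fold above CT34. The 2-fold range held in all 12 settings that used the 4 libraries, with values from 2.32 to 4.24. These include the main setting, the alternative filters, which cannot change the value, and a scaling that repeats another.

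Csf1r encodes the receptor for CSF1 and IL34, on which Kupffer cells depend. It had 554 scaled reads (CT22), 765 (CT28), 1116 (CT34) and 850. (CT40) CT34 was above and CT22 below the other 2, whose counting intervals overlapped, and CT34 was 2.01-fold above CT22 (1.81 to 2.24). Adgre1, the adhesion receptor widely used as a mouse macrophage antigen, had 65.6, 92.6, 156 and 96.5 scaled reads, from 63, 94, 153 and 101 raw reads. Its order was the same as that of Csf1r at the extremes, with CT34 2.38-fold above CT22 (1.76 to 3.25) and CT28 and CT40 close together between them. Csf1r and Adgre1 were the 2 members at least 2-fold higher at CT34 than at CT22, as were 4.07% of all genes tested.

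The size of the CT34 to CT22 difference in Csf1r and Adgre1 depended on which part of the transcript was read. Exons were divided at the transcript midpoint. In Csf1r the CT34 over CT22 ratio was 3.42 in the 5' part and 1.57 in the 3' part. In Adgre1 it was 5.999 in the 5' part, where CT22 held 34 exon reads, and 1.82 in the 3' part. The direction was the same in both parts of both genes, and the 2-fold size was reached in the 5' part only. Csf1r exon 3 had 29, 90, 221 and 167 scaled reads at CT22, CT28, CT34 and CT40, whereas exon 22, the last, had 276, 371, 337 and 281. Of the 21 Csf1r exons with any read, 21 were higher at CT34 than at CT22, and so were 21 of the 22 Adgre1 exons. With a trend on GC content and length removed from each library the Csf1r range was 1.53-fold, and the Adgre1 range 2.29-fold.

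**Figure D3:**
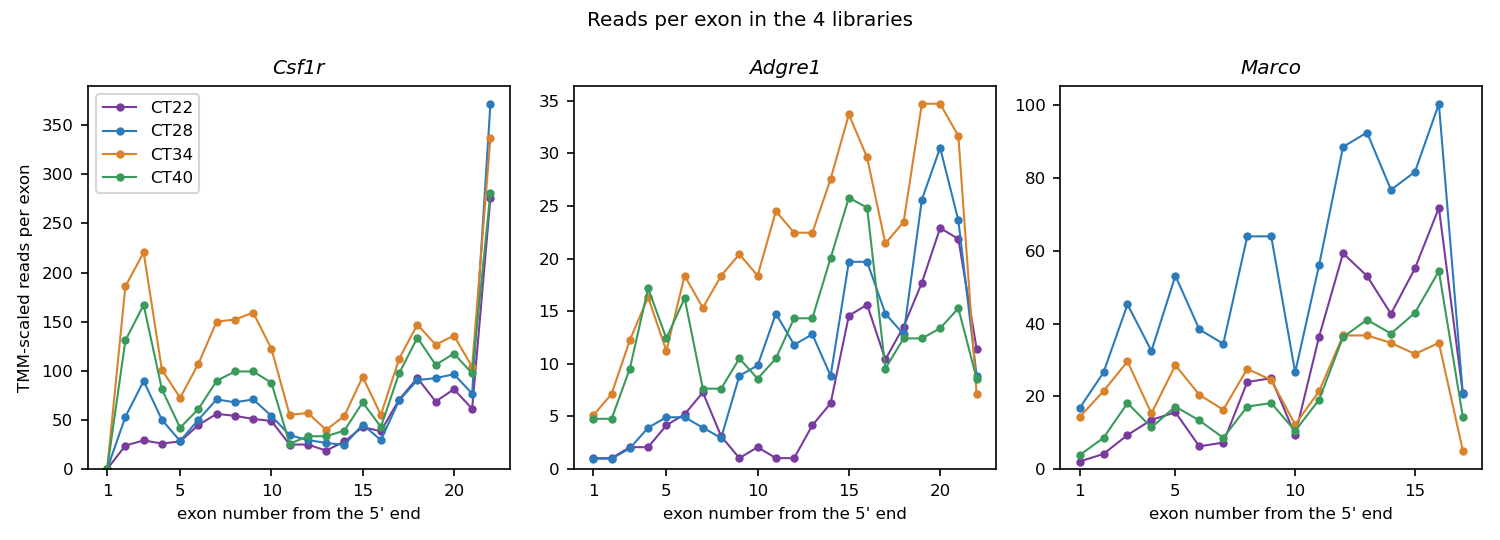
TMM-scaled reads per exon (vertical axis) against exon number from the 5' end for Csf1r, Adgre1 and Marco, 1 line per library. The Csf1r lines are far apart at exon 3 (29 at CT22 and 221 at CT34) and close at exon 22 (276 and 337), whereas the CT28 line of Marco is the highest in 16 of 17 exons.

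The same 5' shortfall at CT22 was seen in most members. The log2 ratio of 5' to 3' exon reads per base was lowest at CT22 in 8 of 10 members, the exceptions being C1qb and C1qc. In Marco it was -2.68 at CT22, -1.35 at CT28, then -0.77 at CT34 and -1.75. at CT40 Because a read that spans several short exons counts in each of them, these ratios can be compared between libraries of 1 gene but not between genes. CT34 exceeded CT22 in 7 of 10 members by their 5' exons and in 4 of 10 by their 3' exons. The median over all genes shifted the same way, with a log2 ratio of CT22 over CT34 of -0.27 in 5' exons and 0.07 in 3' exons. Shares over all genes are not set beside the counts of members in this paragraph, so these are not read as particular to the members. The part that the uneven coverage of the CT22 library plays in the Csf1r and Adgre1 differences was not tested.

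**Figure D4:**
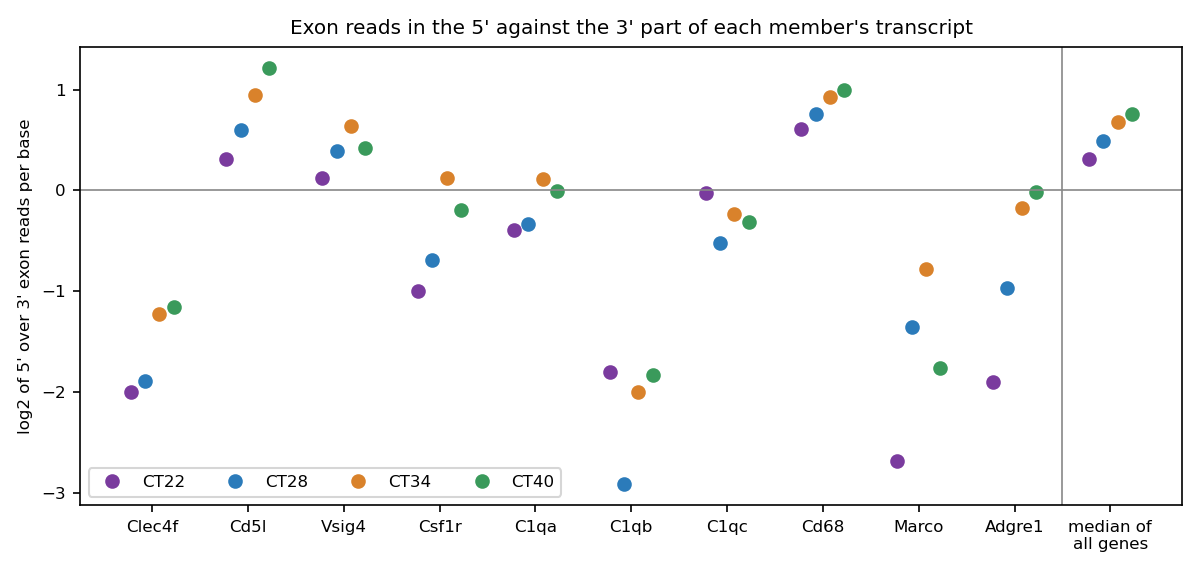
Log2 ratio of exon reads per base in the 5' part to the 3' part of the transcript (vertical axis) for each gene and for the median of all genes, 1 colour per library. The CT22 point is the lowest of the 4 in 8 of the 10 genes, and the all-gene medians run from 0.31 at CT22 to 0.76 at CT40.

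Of the secreted proteins, Cd5l, an inhibitor of apoptosis that macrophages release into blood, had 1033 scaled reads (CT22), 782 (CT28), 968 (CT34) and 1062. (CT40) In these transcript reads CT28 was the low library and the other 3 lay close together, with CT40 1.36-fold above CT28 (1.24 to 1.49). CT28 was also the lowest in the 5' and in the 3' exons. The other libraries were less alike there, with a CT22 over CT40 ratio of 0.74 in the 5' exons and 1.38 in the 3' exons. C1q is assembled from equal numbers of the chains encoded by C1qa, C1qb and C1qc, which start the classical complement pathway. In the mm9 build used by the authors the genes are neighbours on the minus strand of chromosome 4, C1qb at chr4:136436061-136442092, C1qc at chr4:136445717-136448829 and C1qa at chr4:136451831-136454759. C1qa had 487, 305, 341 and 239 scaled reads at CT22, CT28, CT34 and CT40. C1qb had 1332, 1101, 1097 and 1101, and C1qc had 717, 597, 572 and 512. In transcript reads each chain was highest at CT22, but the size differed: CT22 was 2.04-fold above the lowest library for C1qa (1.75 to 2.39), 1.40-fold for C1qc (1.25 to 1.57) and 1.21-fold for C1qb (1.12 to 1.32). The 2-fold range of C1qa was not reached in its 5' exons (1.56) or its junction reads (1.60). C1qb did pass 2-fold in these, at 2.59 in 5' exons and 2.01 in junction reads, with CT28 the lowest library in both. Junction reads of the chains were few, 30 to 45 per library for C1qa, and did not follow the same order: C1qa was highest at CT34, C1qb at CT40 and C1qc at CT28, and none at CT22.

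Per base of the whole transcript, the chains kept the order C1qb, C1qc, C1qa in all 4 libraries, but not a fixed ratio. The 5' exons did not keep this order. From CT22 to CT40 they held 169, 69, 124 and 151 raw reads of C1qb and 215, 134, 150 and 137 of C1qc. C1qa had 117, 81, 118 and 82 there. The order and the ratios below thus rest on reads in the 3' exons. C1qb over C1qa was 2.79 at CT22 (2.51 to 3.10), 3.68 at CT28 (3.24 to 4.18), 3.28 at CT34 (2.90 to 3.72) and 4.70 at CT40 (4.10 to 5.41). The CT22 and CT40 intervals did not overlap. C1qb over C1qc moved less, from 1.83 at CT28 to 2.14 at CT40, with intervals that overlapped in all 4 libraries. Among all 10 members, C1qb had the highest level per kilobase of whole transcript in every library, a mean of 1091 scaled reads per kilobase. Adgre1 had the lowest and Marco the next lowest in every library, with means of 31.7 and 69.6.

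Cd68 is a glycoprotein of late endosomes and lysosomes that marks macrophages in general. The transcript selected by the rule, a Vega model of 612 bases, had 206 scaled reads at CT22, 260 at CT28, then 284 at CT34 and 267. at CT40 CT22 was the low library and the other 3 overlapped, with CT34 1.38-fold above CT22 (1.14 to 1.66). In the 3' exons of this model the CT34 over CT22 ratio was 1.01, and its junction reads turned the order, with 75, 64, 55 and 74 from CT22 to CT40. The first intron of this model was spanned by 0 junction reads in every library. The longest Cd68 model, of 1230 bases, shares the other introns, and its own first intron was spanned by 61, 99, 112 and 112 junction reads at CT22, CT28, CT34 and CT40. That longer model had 248, 285, 339 and 317 scaled reads, in the same order of libraries and with a 1.37-fold range. Reads listed in the introns of the short model include exons of the longer one and are not used as intron reads.

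The windows before the start sites of 4 members are shown: Marco, the 1 member with a 2-fold range that had a window, the neighbours C1qb and C1qc, and Vsig4, whose window held 2 matches to the letters marked. They are the 250 bases before the RefSeq start in build GRCm38.p6, which is not the build of the expression files, read 5' to 3' on the strand of the gene. Capitals mark GAGGAA, letters found in binding sites of the macrophage factor PU.1, or its reverse complement TTCCTC. The Marco window is chr1:120505025-120505274, C1qb chr4:136886201-136886450, C1qc chr4:136892915-136893164 and Vsig4 chrX:96293439-96293688, all on the minus strand.
Marco: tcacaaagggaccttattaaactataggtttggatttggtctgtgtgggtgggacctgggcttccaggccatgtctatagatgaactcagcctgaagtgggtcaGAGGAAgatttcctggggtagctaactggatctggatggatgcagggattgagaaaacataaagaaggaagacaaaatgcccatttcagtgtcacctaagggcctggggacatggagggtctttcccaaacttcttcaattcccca
C1qb: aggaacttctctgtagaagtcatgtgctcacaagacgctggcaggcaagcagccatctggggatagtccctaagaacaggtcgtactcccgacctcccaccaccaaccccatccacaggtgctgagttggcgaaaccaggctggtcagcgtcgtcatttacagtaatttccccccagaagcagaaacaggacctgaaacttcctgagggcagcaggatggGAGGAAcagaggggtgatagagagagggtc
C1qc: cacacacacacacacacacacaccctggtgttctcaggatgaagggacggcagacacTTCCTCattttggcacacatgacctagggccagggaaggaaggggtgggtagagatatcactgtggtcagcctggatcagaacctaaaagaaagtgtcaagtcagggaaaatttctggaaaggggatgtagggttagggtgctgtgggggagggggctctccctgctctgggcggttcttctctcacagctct
Vsig4: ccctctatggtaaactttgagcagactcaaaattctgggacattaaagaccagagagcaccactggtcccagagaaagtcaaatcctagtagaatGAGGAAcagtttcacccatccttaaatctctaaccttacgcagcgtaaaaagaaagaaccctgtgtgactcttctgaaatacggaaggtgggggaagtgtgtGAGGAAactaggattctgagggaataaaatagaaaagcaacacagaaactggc
Of the 10 members, 7 had a window in the RefSeq table (Clec4f, Cd5l, Vsig4, C1qb, C1qc, Cd68 and Marco). GAGGAA on either strand was in 6 of these 7 windows, and in 23.3% of the 32851 windows of the table. In the windows shown it lay 146 to 141 bases before the start of Marco, 30 to 25 before C1qb, 193 to 188 before C1qc, and 155 to 150 and 53 to 48 before Vsig4. CACGTG, the E-box bound by CLOCK and BMAL1, was in 0 of 7 windows and in 6.02% of all. The looser E-box CANNTG, which includes CACGTG, was in 4 of 7 and in 66.2% of all. TTTCCT, which can overlap TTCCTC, was in 3 of 7 and 25.4% of all. The AP-1 letters TGAGTCA were in 1 of 7 and 4.46% of all, and TATAAA in 0 of 7 and 12.4% of all. The short core GGAA, which lies within GAGGAA, was in 7 of 7 and 93.4% of all. These strings were chosen after the expression values were known, both strands were searched, and a match describes letters only.

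Intron reads, which in polyA libraries come mainly from RNA that is not fully spliced, followed another order than transcript reads in most members. Intron reads were highest in the same library as transcript reads in 2 of 10 members, Marco and Cd68, and the Cd68 value is set aside for the reason above. No count over all genes is set beside this one, so it is not read as particular to the members. Marco had 25, 39, 13 and 20 intron reads at CT22, CT28, CT34 and CT40, so CT28 was high there too, at low counts. Cd5l had 100, 189, 90 and 118 intron reads, with CT28 the highest library, whereas CT28 was its lowest library in transcript reads. Csf1r had 106, 168, 87 and 105 intron reads, and its CT34 library, the highest in transcript reads, was the lowest in introns. Over all genes, CT34 was also the library poorest in intron reads, with 16.9 per 100 gene reads. Clec4f had 250, 228, 215 and 203 intron reads, close to even.

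Adgre1 showed the widest contrast between introns and exons. It had 126, 97, 48 and 56 intron reads at CT22, CT28, CT34 and CT40, against 63, 94, 153 and 101 transcript reads. Expressed per 100 transcript reads, that was 200 (CT22), 103 (CT28), 31.4 (CT34) and 55.4. (CT40) The library with the most Adgre1 intron reads was thus the one with the fewest transcript reads. Introns 2 and 18, of 40170 and 15069 bases, held more of these reads than any other, with 36 and 33 at CT22 and 9 and 13 at CT34. Intron reads are not divided by length here, so these shares do not compare Adgre1 with genes of shorter introns. The introns of C1qa, for 1, are 901 and 946 bases long. The CT22 library was also the richest in intron reads over all genes, as given above, and its part in this contrast was not tested.

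**Figure D5:**
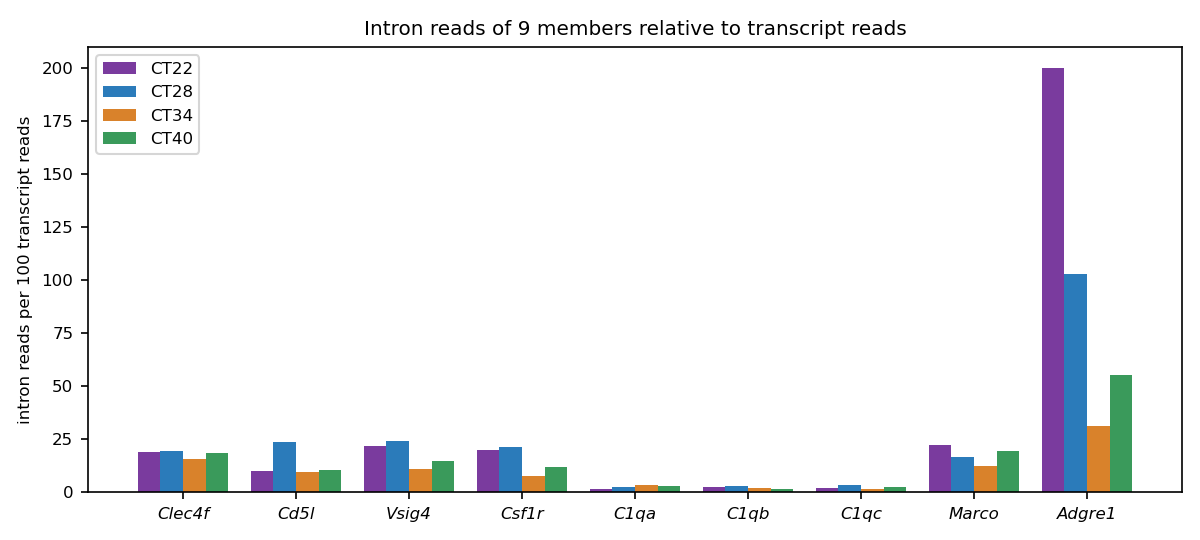
Intron reads per 100 transcript reads (bars, axis from 0) for 9 genes in the 4 libraries; Cd68 is left out because its listed introns contain exons of a longer model. Adgre1 reaches 200 at CT22 and 31.4 at CT34, and the C1q chains stay below 4 in all 4 libraries.

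The median centred log2 profile of the 10 members was 0.04 at CT22, -0.07 at CT28, then 0.10 at CT34 and -0.12. at CT40 The root mean square distance of single members from it ran from 0.10 for Clec4f to 0.53 for Marco, and the median distance of all genes tested was 0.23. The 5 genes outside all lists nearest to this profile over the 4 libraries were Rars, Cyp2d13, Pabpc4, Lsm4 and Crebzf, at distances of 0.017 to 0.021. For Clec4f, the nearest member, 610 other genes lay nearer than it did. The median profile, taken from these same members, was nearly flat. A gene with a 2-fold range must lie away from such a profile. The larger distances of the 4 members with that range therefore add nothing to it.

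Few other macrophage genes that passed the filter had a 2-fold range. Of 30 further Kupffer cell and tissue macrophage genes, 25 passed, and 1 of them, the haptoglobin-haemoglobin scavenger receptor Cd163, had a 2-fold range. Over all genes tested the share was 13.0%. Cd163 had 173, 118, 254 and 156 raw reads at CT22, CT28, CT34 and CT40, a 2.23-fold range (1.79 to 2.80) after scaling. The next widest were Laptm5, at 1.97-fold, whose upper value with multi-mapped reads was 1.98 times the lower, and Slc15a3, at 1.91-fold. The median log2 range of these 25 genes was 0.51. All 30 together summed to between 11315 and 12074 scaled reads in the 4 libraries, and in whole liver these reads cannot all be assigned to macrophages. None of the 25 was 2-fold different between CT22 and CT34 in either direction. Over all genes tested, 4.07% were at least 2-fold higher at CT34 and 3.07% at CT22, so none among 25 is close to those shares. Below the filter, Aif1 (61 and 22 raw reads at CT22 and CT34) and Itgam (22 and 53) differed by more than 2-fold, in opposite directions. Msr1, Cd14 and Fcgr1, also below it, did not.

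Of 12 macrophage transcription factors, 10 passed the filter and 4 had a 2-fold range, among them Id3, Id1 and Irf7. Id3, an inhibitor of DNA binding needed by Kupffer cells, had 789, 1263, 635 and 434 raw reads, a 3.00-fold range (2.69 to 3.35). Id1 ranged by 2.71-fold (2.10 to 3.53). Irf7, at 2.03-fold (1.82 to 2.26), was at least 2-fold higher at CT22 than at CT34, as were 3.07% of all genes tested; no Kupffer cell marker of the 10 was. Spi1, which encodes PU.1, ranged by 1.63-fold and Nr1h3, the liver X receptor alpha, by 1.31-fold. In whole liver the reads of these factors cannot be assigned to macrophages. Nr1h3 had 3350 to 4220 raw reads per library and Spi1 118 to 182. In the CSF1 receptor pathway list, which includes Csf1r itself, 6 of 11 genes passed the filter and 1 had a 2-fold range, Csf1r. Below the filter, Inpp5d (59, 86, 125 and 108 raw reads) ranged by 2.08-fold (1.51 to 2.88), lowest at CT22 and highest at CT34 as Csf1r was. Dok2 ranged by 2.73-fold (1.71 to 4.48) and was highest at CT22. Il34, Pik3cg and Plcg2, also below the filter, ranged by less than 2-fold. The ligand gene Csf1 had 198, 220, 216 and 170 raw reads, a 1.36-fold range, and did not share the CT22 low of its receptor.

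Of the antigen presentation genes 4 of 8 passed the filter and 3 had a 2-fold range. H2-Ab1, a chain of an MHC class II molecule, had 993, 1385, 509 and 749 raw reads at CT22, CT28, CT34 and CT40, a 2.62-fold range (2.37 to 2.91). H2-Eb1 and H2-Aa ranged by 2.53- and 2.29-fold, and Cd74, the invariant chain, by 1.98-fold. All 4 were lowest at CT34, the library in which Csf1r and Adgre1 were highest. The share of all genes lowest at CT34 is not given beside this count. In the classical complement list, which holds the C1q genes, 9 genes passed and 3 had a 2-fold range, C1qa, C3 and C4b. C3 was lowest at CT22, with 108123 raw reads against 324805 at CT34, opposite to the C1q chains, and C4b ranged by 2.08-fold with an upper value 1.35 times the lower.

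Markers of other cells moved with some of these values. Of 11 liver sinusoidal endothelial markers that passed the filter, 11 were higher at CT34 than at CT22. Of these, 6 were at least 2-fold higher, as were 4.07% of all genes tested. The 2 endothelial markers that did not pass the filter went the other way. Lyve1 had 92.7 and 37.8 scaled reads and Bmp2 181 and 104 at CT22 and CT34. The list of 13 summed to 5762, 6862, 11063 and 7834 scaled reads. Kdr, the endothelial VEGF receptor, had 264, 320, 745 and 477 raw reads, a 2.77-fold range (2.40 to 3.20), with Oit3 at 2.93- and Dnase1l3 at 2.65-fold. The order of the libraries in Kdr matched that of Csf1r and Adgre1 at the extremes. Of 9 stellate cell markers 2 had a 2-fold range, Reln at 3.31- and Pdgfrb at 2.23-fold, and 7 were higher at CT34 than at CT22. Col1a1 was next at 1.96-fold. No share over all genes is set beside the counts of endothelial and stellate markers simply higher at CT34. The part of these cells in the Csf1r and Adgre1 differences was not tested.

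Most markers of white blood cells had few reads. Of 15 markers of T, B, NK and dendritic cells, 0 passed the filter, and the list summed to between 155 and 251 scaled reads, with none at 0 in all 4 libraries. Of 11 matched monocyte and neutrophil markers 1 passed, Lcn2, with 582, 642, 400.2 and 266 scaled reads; the monocyte receptor Ccr2 had 7, 16, 3 and 9 raw reads and the neutrophil gene S100a8 had 2, 4, 5 and 3. The list summed to 726, 799, 520 and 403 scaled reads, highest at CT28 as Marco was. This sum was mostly Lcn2 and does not describe the other markers of the list. Ccr2 was highest at CT28 and S100a8 at CT34, both at few reads. The part of these cells in the Marco value was not tested. The erythroid markers had more reads, with list sums of 6962, 4838, 9256 and 2786 scaled reads at CT22, CT28, CT34 and CT40. They were uneven, with 3 of 4 past 2-fold. The globin genes Hbb-b2, Hba-a2 and Hba-a1 ranged by 6.39-, 4.93- and 4.88-fold. The upper values of these globin genes were 13.4 to 192 times the lower, so their reads cannot be assigned to single copies. Of 2 cholangiocyte markers that passed 1 had a 2-fold range, Sox9 at 2.38-fold, and Spp1 did not. Of 15 hepatocyte markers 2 did, Cps1 at 2.17- and Pck1 at 2.15-fold.

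In the 2 pairs of libraries 12 h apart, the median member differed little. The median log2 ratio of CT22 over CT34 was 0.05 for the 10 members and -0.05 for all genes tested, and that of CT28 over CT40 was 0.03 and -0.01. Of the 10, 5 were higher at CT34 than at CT22, counting Clec4f, for which the 2 libraries could not be separated. The share of all genes higher at CT34 is not given, so this count is not read as particular to the members. With total-read or median-of-ratios scaling Clec4f was higher at CT22. These medians hide opposite differences, with Csf1r and Adgre1 higher at CT34 and the C1q chains higher at CT22.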

How the data were processed

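Liver polyA RNA of 4 libraries was analysed, 1 per time, each from 3 pooled animals, per the labels. The submitters' processing notes name the build mm9, and the file headers name RUM as the source of the junctions; its version and the counting rule are not stated there. The deposited values per transcript, exon and intron have no stated unit. They are on another scale that behaved as RPKM: value times length gave whole multiples of 1 step in each library for 99.99% of lower values above 0 (within 0.05 read beyond rounding). Whole reads were recovered this way; lower values were taken to be uniquely mapped reads and upper values to add multi-mapped ones, which is inferred. The junction files hold the authors' counts of reads per junction. The protocol does not mark strand.

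Of 115699 transcripts, 26046 were matched to a symbol through RefSeq and 53799 through Vega, and 35854 were left out, mitochondrial ones included. Each gene was represented by its RefSeq transcript with the highest mean, or by a Vega one where no RefSeq transcript matched, as for Cd68; this order was chosen after seeing the files. Reads were scaled by TMM (edgeR 4.0.16, R 4.3.3). The filter was a mean of 100 reads, counts below 3 were raised to 3, and the call was a 2-fold range. With 1 library per time there is no test; ratios have exact conditional 95% intervals and reads exact Poisson ones, which cover counting error only, and PCR copies make them too narrow.

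The members and the 12 other lists were chosen with earlier results of these data known. All 10 members are named, from each list up to 3 genes with the widest range among those that passed the filter, and the 5 genes nearest to the median profile. Irf7, Spi1, Nr1h3, Csf1 and Cd74 were added after their values were seen, as roles or cases near the threshold, and Ccr2 and S100a8 are defining markers. The other genes named that did not pass the filter were also added after their values were seen. In all, 4 list symbols were not matched. One further list gene is not reported here. Alternatives covered scaling, filter, upper values, transcript, 5' and 3' exons, junctions, a GC and length trend, the threshold and each library left out.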

Additional observations from a re-analysis of the deposited data

How the results depend on the processing

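The count of members past 2-fold, 4, was 3 with total-read or median-of-ratios scaling and with upper values, where Csf1r slipped just below 2, and 3 with the GC and length trend removed, where Csf1r was at 1.53 (8.64% of all genes passed). It was 2 in 3' exons (16.6% of all genes), 4 in 5' exons (26.5%), and between 1 (without CT22) and 3 when 1 library was left out (2 without CT34, 10.4% of all genes). In 5' exons C1qb was past 2-fold and C1qa was not. The median log2 ratio of CT22 over CT34, 0.05, became 0.24 in 3' exons (0.07 over all genes), -0.45 in 5' exons (-0.27 over all genes), -0.22 in junction reads and 0.17 with the trend removed (0.0076 over all genes). That of CT28 over CT40, 0.03, became -0.33 in 5' exons (-0.20 over all genes) and -0.17 in junction reads. The median log2 range became 0.84 in 5' exons (0.69 over all genes). The summed level's highest over lowest, 1.16, became 1.27 in 3' exons, 1.61 in 5' exons and 1.34 in junction reads. The cause of these shifts was not tested. Scaling by totals without mitochondrial genes equals scaling by totals, because those transcripts had no symbol. Of 220 member ratios under alternatives, 183 stayed within the counting interval, 37 moved and 0 of those past 2-fold reversed. Part of the 183 was fixed in advance. The alternative filters could not change a member's ratio, and totals without mitochondrial genes repeated the total-read values. Of the 37, 9 changed sign, among them CT22 over CT34 of Marco (log2 0.15 to -1.32 in 5' exons), C1qa (0.52 to -0.56) and Cd68 (-0.46 to 0.48, both in junction reads). No paired analysis was possible because each time has 1 library. Depth limits Adgre1 and Marco most, with 63 and 103 raw reads in their lowest libraries.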
